A study of Arabidopsis thaliana with 32 samples.

Results

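The 104 array features described here had dexamethasone-to-control ratios below 0 on the log2 scale both in an early window (2, 4 and 6 h) and in a late window (10, 12 and 22 h) after induction of LEAFY activity in Arabidopsis thaliana callus. They were chosen by measured values. A feature entered if its mean log2 ratio over the 12 arrays of each window was -0.35 or lower, with at least 10 values and at least 10 negative values in each window. Of 10816 features on the array, 10475 had enough values for this rule, and 104 (0.993%) met it. A log2 ratio of -0.35 is a 1.27-fold lower signal.

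All material was callus from root explants of 35S:LFY-GR plants, per the labels. The 35S promoter drives the transgene in most tissues, so every sample, control included, carried the fusion protein. Each of the 32 dual-channel cDNA arrays compared RNA from callus exposed to a dexamethasone solution with RNA from callus exposed to a control solution for the same time, with 4 arrays per time point (0, 2, 4, 6, 8, 10, 12 and 22 h). The sources used here do not give plant age, the number of lines or the number of explants pooled, nor whether each time point had 4 separate RNA pairs. The p-values therefore measure only how the arrays vary, and that variation may be technical. No group without the transgene was analysed here, so a response to dexamethasone itself cannot be told apart from a response to LFY-GR.

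LEAFY is a plant transcription factor that turns on floral meristem identity genes, among them other transcription factors of flower development. Fused to the steroid-binding domain of the glucocorticoid receptor (GR), it is held outside the nucleus until dexamethasone is added. Transcripts that are lower in treated tissue can be direct targets of repression or can follow from earlier changes, and ratios of RNA from whole callus do not separate these. Nor can fewer cells of a type be told apart from less RNA per cell. The array was enriched for transcripts of flowers, per the labels.

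The features carry plate positions as identifiers, and 0 of the 10816 matched the gene table used here. No role, gene group or sequence can therefore be attached to them, and several features may hold clones of 1 transcript. Callus identity could not be checked with marker genes for the same reason. The 2 members with the lowest mean over the 24 choosing arrays are named, and the others are given by rank, range and count.

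The direction of the ratio is likely but not stated in the sources used here. The treated RNA was in channel 2 on replicates 1 and 3 and in channel 1 on replicates 2 and 4, and the signs of replicates 2 and 4 were turned. Negative values mean lower in dexamethasone if the authors divided channel 2 by channel 1, the usual convention. If it was the reverse, all signs exchange and these are features higher in dexamethasone. The turning itself could be read on arrays that did not choose the members. At 8 h the members' median as deposited was -0.57 on replicate 1, 0.59 on replicate 2, -0.39 on replicate 3 and 0.63 on replicate 4. The sign thus followed the channel of the treated RNA on all 4 arrays. At 0 h the deposited medians were 0.05, 0.10, -0.08 and 0.06 for replicates 1 to 4, and the signs of replicates 1 and 3 differed.

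Arrays had values for 10646 to 10809 features. Values at the deposited limits, a ratio of 100 in either direction, were set missing, which was 0.982% of all values. Of the 32 arrays, 10 had over 100 values at the upper limit, among them replicate 2 at 8 h with 476. None of the 3328 values of the members lay at a limit and 1 was missing, so 0.962% of members against 9.48% of all features lacked a usable value on any array. The rule favoured this contrast, since it asked for at least 10 usable values in each window. The member values ran from -2.36 to 1.20.

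The members' median stood near 0 before treatment and was lower at every later time point. The median over members, taken on each array, averaged -0.05 ± 0.07 at 0 h (SD over 4 arrays, as for the values that follow). In the early window it was -0.45 ± 0.17 (2 h), -0.53 ± 0.02 (4 h) and -0.57 ± 0.20 (6 h). At 8 h it was -0.55 ± 0.10, and in the late window it was -0.53 ± 0.15 (10 h), -0.52 ± 0.14 (12 h) and -0.48 ± 0.10 (22 h). The values from 2 to 6 h and from 10 to 22 h chose the members and are a description. The median of all features stayed between -0.01 and 0.01 when averaged over the 4 arrays of each time point.

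**Figure D1:**
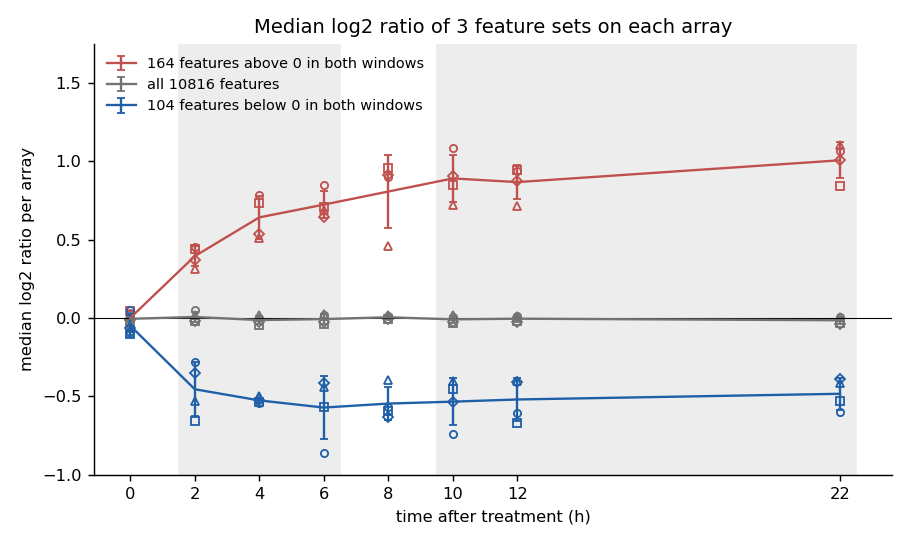
Median log2 ratio per array (y axis) against hours after treatment (x axis) for the 104 members (blue), the 164 features that met the same rule above 0 (red) and all 10816 features (grey). Open symbols are single arrays (circle, square, triangle and diamond for replicates 1 to 4), lines join means with SD bars, and grey bands mark the windows that chose the coloured sets. The members lie between -0.39 and -0.63 at 8 h, while all features lie near 0.

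The 8 h arrays, which had no part in choosing the members, gave the test. In a limma fit to the 8 arrays at 0 and 8 h, over all 10659 features with enough values, 45 features (0.422%) were called below 0 at 8 h at an adjusted p under 0.05. Members made up 26 of those 45, so that 26 of the 104 members were called. The 26 had ratios from -1.13 to -0.47, with a median of -0.80 and a median SE of 0.13. The other 78 had ratios from -0.89 to -0.18, with a median of -0.44 and a median SE of 0.14. No member was above 0 at 8 h, and 0 were called above 0, although the fit called 148 features there in all.

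The number of calls at 8 h depended on single arrays, whereas the position of the members did not. Without replicate 1, 2, 3 or 4 the fit called 0, 1, 18 and 4 members, among 1, 1, 24 and 10 features called below 0 in all. Without replicate 2 at 8 h alone, the array with 476 limit values, it called 10 members among 17 features below 0. With each time point fitted alone it called 0 features. With replicates 1 and 2, and 3 and 4, averaged as dye swaps it called 7 members among 35 features below 0, against 26 among 45 in the main fit. At an unadjusted p under 0.05, 93 members (89.4%) were below 0, against 5.58% of all features tested, and the other 11 had ratios from -0.43 to -0.18. Over the 17 settings that kept the sign, this count ran from 69 to 94 members (66.3% to 90.4%), against 3.74% to 6.70% of all features. The median over members of the fitted 8 h ratio stayed between -0.54 and -0.49.

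Counts that need no model were made at 8 h as well. The mean of the 4 arrays was -0.35 or lower for 88 members (84.6%), against 5.66% of the features with 4 values. All 4 arrays were below 0 for 70 members, against 7.73% of features.

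At 0 h, before any treatment time had passed, the members' median lay near 0, but low features were more frequent among members than among all features. There limma called 0 features in either direction (0.0%), with 210 at an unadjusted p under 0.05, of which 151 were below 0 (1.42%). Among the latter were 8 members (7.69% of the 104). All 4 arrays were below 0 at 0 h for 8 of the 103 members with 4 values there (7.77%), against 5.07% of features. Member means at 0 h ran from -0.49 to 0.31 with a median of -0.03, and 5 members (4.85%) were at -0.35 or lower, against 1.90% of features.

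Read against 0 h, fewer features were called, and the error of this difference includes that of the 0 h arrays. The fit called 2 features (0.0188%) as lower at 8 h than at 0 h, and both were members. One was GP089G2 and the other was the member with the eighth lowest mean, which had a difference of -1.09 and an adjusted p of 0.019 in limma. With the replicate number as a block, and without replicate 1, 2, 3 or 4, limma called 0 features on this side, with 167 to 300 features at an unadjusted p under 0.05. At an unadjusted p under 0.05, 53 members were lower at 8 h than at 0 h, against 2.47% of features. The 8 h estimate was below the 0 h estimate in 101 of the 104 members, a count that was not made over all features. The median difference was -0.46 over members and 0.004 over all 10659 features tested. All 4 arrays at 8 h lay below all 4 at 0 h for 31 of the 103 members with 8 values, against 1.33% of features.

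**Figure D2:**
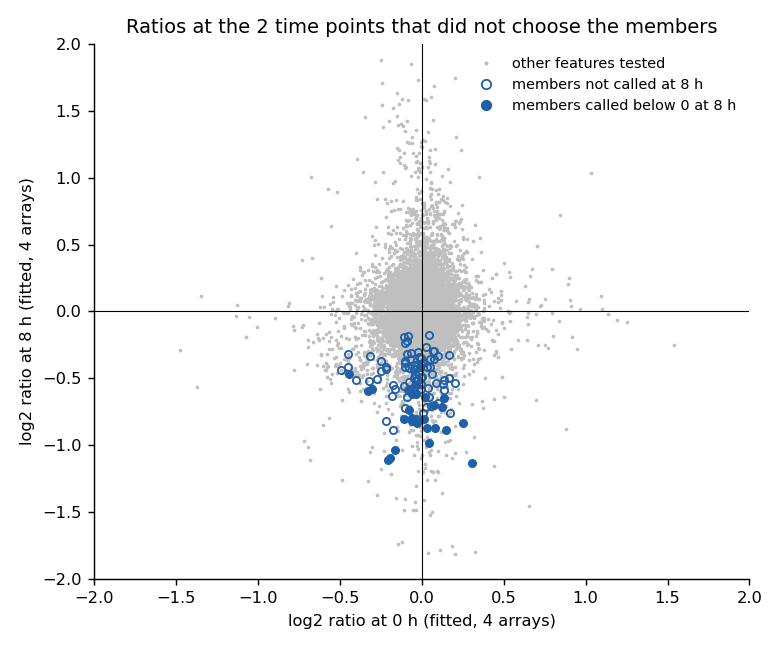
Fitted log2 ratio at 8 h (y axis) against that at 0 h (x axis), each from 4 arrays, for all features tested (grey) and the members (blue, filled where called below 0 at 8 h). The axes stop at -2 and 2, which leaves out 5 features, none of them a member. The members form a band below 0 at 8 h, from -1.13 to -0.18, and straddle 0 at 0 h.

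Feature GP089G2 had the lowest mean over the choosing arrays, -1.05. At 0 h its log2 ratios on replicates 1 to 4 were 0.57, 0.02, 0.52 and 0.13. At 2 h they were -0.78, -1.19, -0.57 and -0.71, and at 6 h they were -1.45, -1.58, -1.24 and -1.33. Every array at 6 h was thus below every array at 2 h, a description, since both times chose the feature. All 4 values at 0 h were above 0. At 8 h the values were -1.33, -1.48, -0.46 and -1.26, and at 22 h they were -1.14, -1.04, -0.06 and -0.68. Replicate 3 stood closest to 0 at both of these times, and at 22 h it was nearly at 0. The ratio at 8 h was -1.13 (SE 0.13, limma adjusted p = 0.00597), a 2.19-fold lower signal. It differed from that at 0 h by -1.44 (SE 0.19, limma adjusted p = 0.0282). The adjusted p at 8 h rose to 0.0529, 0.0734 and 0.0535 without replicate 1, 2 or 4 (limma) and to 0.154 with 8 h fitted alone.

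Feature GP136D9 had nearly the same mean, -1.03, and a different course. Its values at 0 h were 0.17, -0.50, -0.30 and -0.25 on replicates 1 to 4, and at 4 h they were -1.36, -1.15, -0.81 and -1.03. At 8 h they were -0.85, -1.53, -0.39 and -0.52. The 4 h arrays, which helped to choose this feature, did not overlap those at 0 h, and nothing is read from that. The 8 h arrays, which did not choose it, overlapped those at 0 h. At 10 h the values were -2.30, -1.84, -0.46 and -0.92, and at 22 h they were -1.82, -1.77, -0.44 and -0.45. From 10 h on, replicates 1 and 2 lay well below replicates 3 and 4. The ratio at 8 h was -0.82 (SE 0.17) and missed the threshold (limma adjusted p = 0.0518), and its difference from 0 h was -0.60 (SE 0.24, limma adjusted p = 0.665).

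**Figure D3:**
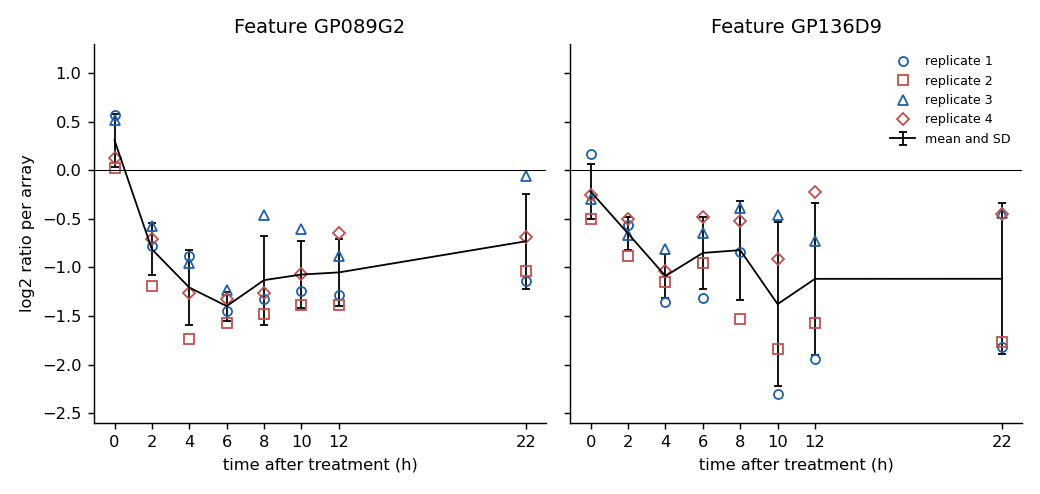
Log2 ratio on each array (y axis) against hours after treatment (x axis) for the members with the lowest and the second lowest mean, GP089G2 and GP136D9. Symbols are single arrays, blue where the treated RNA was in channel 2 (replicates 1 and 3) and red where it was in channel 1 (replicates 2 and 4), and the black line joins means with SD bars. GP089G2 is lowest at 6 h (-1.40 ± 0.15) and back at -0.73 ± 0.49 at 22 h, whereas GP136D9 is at -1.12 ± 0.78 at 22 h with its replicates 1 and 2 apart from replicates 3 and 4.

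On choosing arrays, which also ranked them, the members ranked the third, the fourth and the fifth by mean followed one another closely. At 4 h their means were -1.36, -1.33 and -1.13, at 10 h they were -1.40, -1.25 and -1.20, and at 22 h they were back at -0.46, -0.48 and -0.45. All of them passed the test at 8 h, with ratios of -1.09, -1.04 and -0.98 (limma adjusted p = 0.015, 0.0074 and 0.0084). On the 4 arrays at 8 h they stood at -1.78, -1.09, -1.004 and -0.50 for the third, at -1.57, -0.91, -1.18 and -0.49 for the fourth, and at -1.33, -1.16, -0.76 and -0.69 for the fifth. None of these 12 values was above 0, and all 4 arrays at 8 h were below 0 for 7.73% of all features. The third, the fourth and the fifth lie on 3 different plates.

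Most members were modestly below 0. The early mean ran from -1.18 to -0.35 with a median of -0.48, and the late mean from -1.20 to -0.35 with a median of -0.45. Both windows were at -0.7 or lower in 10 members, and 0 members reached -1 in both. At the threshold, the weaker of the window means ran from -0.352 to -0.351 for the 5 members just inside and from -0.349 to -0.341 for the 5 features just outside. The list therefore has no natural edge there, and a threshold of -0.25 gave 168 features while one of -0.5 gave 28.

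At single time points of the choosing windows the members were counted as a description. Means of -0.35 or lower were found in 77, 93 and 96 members at 2, 4 and 6 h and in 86, 87 and 73 members at 10, 12 and 22 h. The corresponding shares of all features with 4 values were 4.52%, 3.65%, 4.44%, 4.21%, 3.98% and 5.47%, and nothing is read from these counts, since those arrays chose the members. Together with 8 h, 32 members were at that level at all 7 later times and 103 were below 0 at all 7. The exception was at 0.04 at 2 h. The lowest of the 7 means fell at 6 h in 23 members, at 22 h in 22 and at 10 h in 16, with 8 to 12 members at each of the other times.

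Members differed in whether they became deeper or shallower in the late window. The late mean was within 0.2 of the early mean in 82 members, at least 0.2 lower in 14 and at least 0.2 higher in 8. The 14 that deepened had medians of -0.51, -0.65, -0.84 and -1.0 at 2, 8, 10 and 22 h, and their means at 22 h ran from -1.20 to -0.60. Most of the 14 belong to a group of 26 linked members, described below, whose late values differed between replicates. That group's median went from -0.76, -0.83, -0.68 and -0.42 at 4 h to -1.12, -1.02, -0.28 and -0.23 at 22 h on replicates 1 to 4. The deepening was therefore not shared by all replicates there. The 8 that recovered had medians of -0.54, -0.94, -0.73 and -0.40 at 2, 6, 8 and 22 h. The 82 others held -0.45, -0.48 and -0.41 at 2, 8 and 22 h. At 8 h, 5 of the 14, 4 of the 8 and 17 of the 82 were called below 0, beside 0.422% of all features. These classes were set with the data in view and carry no test.

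**Figure D4:**
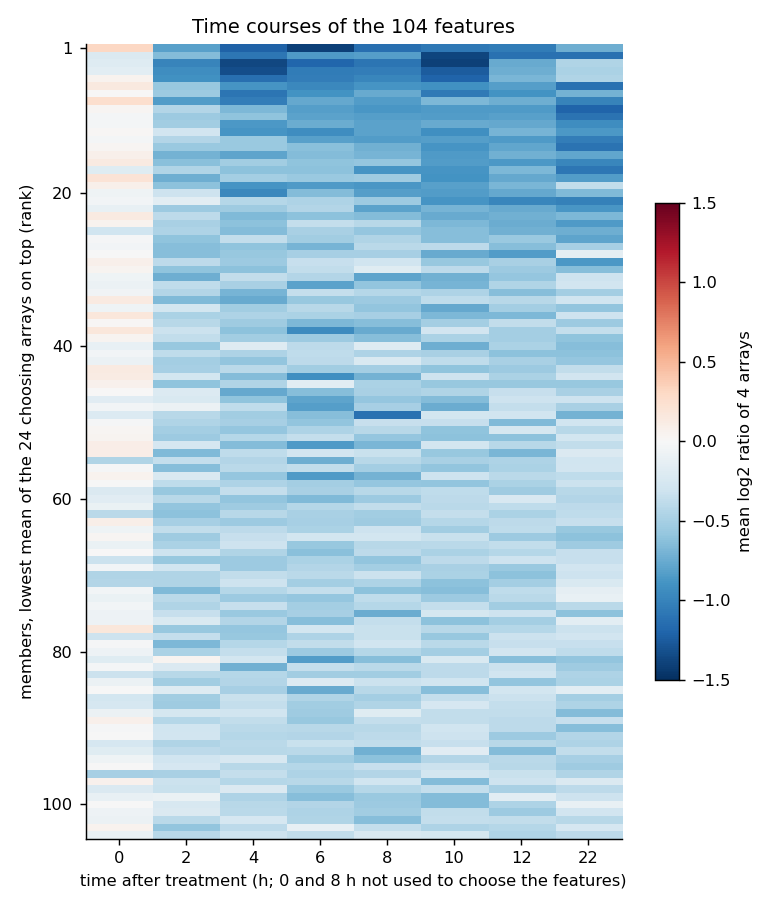
Mean log2 ratio of 4 arrays (colour, blue below 0 and red above 0) for each of the 104 members (rows, ranked by the mean over the 24 choosing arrays) at the 8 time points (columns, in h, not to scale). The 0 h column is pale throughout, with means from -0.49 to 0.31. The 8 h column, which did not choose the members, is blue in every row.

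The mirrored rule, with both windows at 0.35 or higher, gave 164 raised features, whose medians averaged 0.40 ± 0.06, 0.72 ± 0.09, 0.81 ± 0.23 and 1.01 ± 0.12 at 2, 6, 8 and 22 h (SD over 4 arrays). The median late minus early difference was 0.31 for them and -0.01 for the members, and both come from the choosing arrays, so that nothing is read from them. At 8 h, 95 of the 164 were called above 0 by limma, beside 1.39% of all features, and 26 of the 104 members were called below 0, beside 0.422%.

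The other 19 features called below 0 at 8 h had not met the rule. Their early means had a median of -0.01 and their late means a median of -0.11, values that the rule itself used, and 12 of them were above -0.35 in both windows.

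At 8 h the members' median was -0.48 with the treated RNA in channel 2 and -0.61 with it in channel 1, and 102 members were below 0 in both orientations. The share of all features below 0 in both orientations was not counted, so nothing is read from that count. Over the 24 choosing arrays both medians were -0.49, and nothing is read from them, since the rule used these values. Averaged over 2 to 22 h, the members' median was -0.60 on replicate 1, -0.57 on replicate 2, -0.44 on replicate 3 and -0.46 on replicate 4. The median absolute deviation of all features on the same arrays was 0.204, 0.217, 0.197 and 0.197. On this average, mostly of choosing arrays, the members were lower on replicates 1 and 2, where the spread of all features was slightly wider, and its part in the result was not tested. Single times departed from that order, as replicate 4 was the lowest at 8 h (-0.63) and replicate 1 the closest to 0 at 2 h (-0.28).

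Some members also moved together from array to array. After each feature's mean at each time point was removed, 62 of 5253 pairs among the 103 members with all values correlated at 0.8 or higher over the 32 arrays (1.18%), against 0.0741% of the pairs of all 9791 features with all values. This is a description across arrays that share RNA, dyes and hybridization. The pairs linked 48 members into 8 groups, of 26, 9, 3 and, 5 times, 2 features, and left 55 without a link. The groups were thus formed on the arrays whose values are given next, and a pattern over replicates that linked members share follows from the linking. The largest group is a chain, as single pairs in it correlated as low as 0.17.

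The group of 26, from 18 plates, included GP136D9 and the members ranked the third to the fifth. Its median log2 ratio at 8 h was -1.01, -0.83, -0.18 and -0.49 on replicates 1 to 4. At 22 h it was -1.12, -1.02, -0.28 and -0.23. At every time point from 4 h on replicates 1 and 2 were both below replicates 3 and 4, and at 0 h no such order was seen (0.17, -0.14, -0.17 and 0.02). The labels do not state which arrays share RNA, so a difference between RNA pairs cannot be told apart from one between arrays. The 55 members without a link had medians of -0.47, -0.44, -0.46 and -0.60 at 8 h and -0.57, -0.45, -0.40 and -0.40 at 22 h. They had the same order of replicates at 12 and 22 h, with smaller gaps, and not at the other times. Since the linking separated these sets, their contrast carries no test.

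The group of 9, from 8 plates, had a median fitted ratio of -0.33 at 0 h, against -0.03 in the group of 26 and -0.02 in the other members. Its median at 0 h was -0.28, -0.66, 0.24 and -0.55 on replicates 1 to 4, and at 8 h it was -0.10, -0.64, -0.59 and -0.70. The 0 h and 8 h arrays thus overlapped. Of the 8 members below 0 at 0 h at an unadjusted p under 0.05, 5 were in this group. The member lowest at 0 h (-0.49, ranked 96) was outside it. In the group of 9 the fitted 8 h minus 0 h differences ran from -0.55 to 0.13 with a median of -0.12. Of these 9, 0 had an unadjusted p under 0.05, whereas the group of 26 had a median of -0.66 and 16 such members. Over all 10659 features tested, 739 had such a p in limma, in either direction. Both groups were formed on arrays that include those at 0 and 8 h, so their contrast carries no test. For the 9 features as a set the data do not show a fall from the level before treatment. The set was not uniform. Its members ranked 80 and 102 stood at -0.08 and -0.09 at 0 h and at -0.43 and -0.64 at 8 h. At 8 h, 2 of the 9 were called below 0, beside 0.422% of all features.

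**Figure D5:**
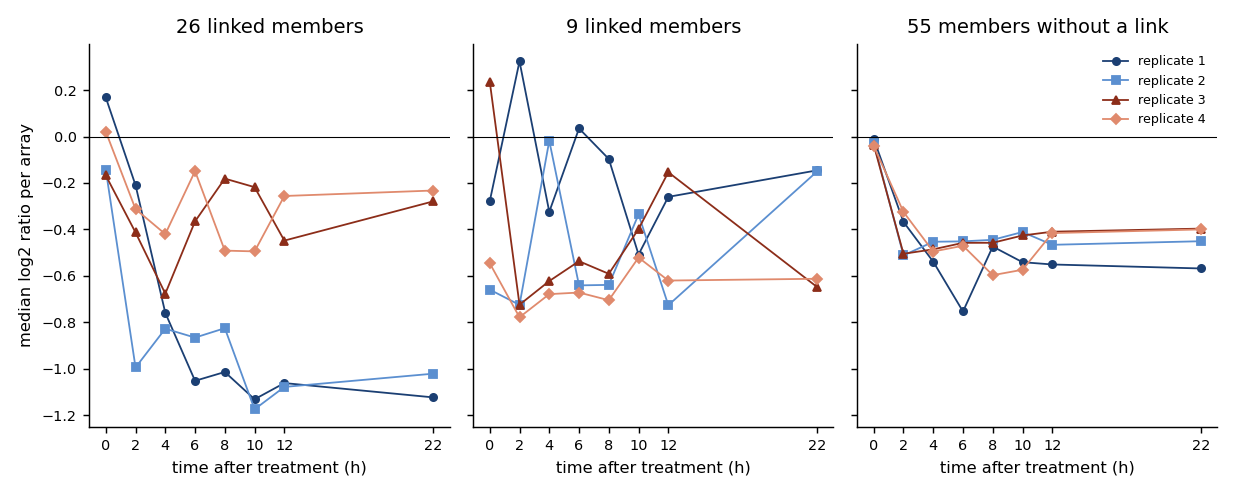
Median log2 ratio per array (y axis) against hours after treatment (x axis) for the 26 linked members, the 9 linked members and the 55 members without a link. Each line joins the arrays of 1 replicate number, as a guide to the eye, since different time points are different arrays. In the left panel replicates 1 and 2 end at -1.12 and -1.02 and replicates 3 and 4 at -0.28 and -0.23, and in the middle panel 3 of the 4 arrays are already below 0 at 0 h.

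Members were spread unevenly over the plates of clones. They came from 58 of 114 plates, with 1 member on 35 plates, 2 on 13 and 3 or more on 10, which together held 43. Plate GP001 held 10 of its 96 features (10.4%), against 0.962% of the whole array, and plates GP002 and GP136 held 5 each. The other features of plate GP001 had a median of -0.06 at 8 h, and 12 of the 83 with 4 values there (14.5%) were at -0.35 or lower, against 5.66% of all features with 4 values. On plate GP002 it was 11 of 77 (14.3%), and on plate GP136 it was 1 of 91 (1.1%). Among the 35 plates with 1 member this share ran from 0.0% to 12.9%. The part of the plate in the members' values was not tested. Whether neighbouring members are clones of 1 transcript was not tested.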

How the data were processed

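The authors deposited 1 log10 ratio per feature and array, made with Rosetta Resolver per the labels; no source used here gives the version, background correction, normalization, numerator or dyes. The log10 scale was inferred from extremes of exactly -2 and 2 and array medians between 0.00092 and 0.0152. Values were multiplied by 3.32 to give log2 ratios, replicates 2 and 4 were turned, and limit values were set missing. Without scanner files, signal over background is unknown, and precision is limited by the number of arrays.

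The 8 arrays at 0 and 8 h were fitted with limma 3.58.1 in R 4.3.3 (lmFit, eBayes), with 1 coefficient per time point and a dye term, for features with at least 1 value per orientation and time point. Tests were two-sided, with Benjamini-Hochberg adjustment over all 10659 features and a threshold of 0.05. The whole-series fit of all 32 arrays was kept as an alternative, because it takes its variance from arrays that chose the members. On simulated data with 10125 features, the fit recovered 24% of features shifted by -0.5 at 8 h and 78% of those shifted by -1, with 4 false calls.

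The members, the lists and the tests were chosen with earlier results of these data known. The 2 named members are those with the lowest mean over the choosing arrays among members with 32 values. Alternatives changed the fit, scaling, limit values, replicates and thresholds.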

Additional observations from a re-analysis of the deposited data

Results flagged for a closer look

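Across all features, 26 differed between 8 h and 0 h by the limma test of the difference itself, of which 24 were higher at 8 h and 2 were lower. Feature GP089G2 was one of those 2, with a difference of -1.44 (SE 0.19, limma adjusted p = 0.0282). It was lower on 4 of 4 arrays at 8 h than on any array at 0 h. In 24 groups of 4 arrays (the members' median and both named members at each time point), 0 single arrays were outliers by Dixon's criterion, which flags about 1 group in 20 by chance.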

How the results depend on the processing

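The arrays of a time point number 4, which leaves 5 residual degrees of freedom in the fit and 3 without a replicate. The 193 features called at 8 h became 109 with limit values kept, 339 with all 32 arrays fitted, 115 with arrays averaged as dye swaps, 96 with arrays scaled, 55 at a threshold of 0.01, 0 with 8 h fitted alone (1025 at an unadjusted p under 0.05, limma) and 94 without replicate 2 at 8 h, an alternative chosen after seeing the data. With 1 replicate left out they ran from 30 to 167. The 26 members called became 13, 37, 7, 11, 6, 0 and 10 under these settings in the same order. With the replicate block 17 members were called, and with 1 replicate left out 0 to 18. Among all features, the 45 called below 0 became 22, 90, 35, 18, 6, 0 and 17 in that order. Those called below 0 numbered 22 with the replicate block and 1 to 24 with 1 replicate left out. The 26 features that differed between 8 h and 0 h became 16 with limit values kept, 85 with all 32 arrays, 0 with the replicate block (776 unadjusted, limma), 15 averaged, 42 with values on all 8 arrays, 1 at 0.01, 1 without replicate 2 at 8 h and 0 to 5 with 1 replicate left out. The cause was not tested. The count at 0 h stayed 0 under the 17 alternatives run.

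Replicate numbers are not stated to pair arrays. Deviations at 0 and 8 h correlated at 0.0684, 0.160, 0.173 and 0.295 for replicates 1 to 4, and replicate 1 correlated best with replicate 3. Turning the sign gave 0 members below 0 and 26 above, a members' median of 0.55, and 1.13 and 0.82 for GP089G2 and GP136D9. The members' median at 8 h otherwise moved by less than its SD. GP136D9 passed with arrays centred (adjusted p = 0.0486), with a robust variance (0.0471) and with values on all 8 arrays (0.0423, limma), and its ratio ran from -0.59 to -1.04 with 1 replicate left out. The rule gave 22 features with all values negative, 28 at -0.5 and 168 at -0.25. With 1 replicate left out it gave 110 to 120 features, holding 73.1% to 81.7% of the members. Without the 10 arrays with over 100 limit values it gave 105, which held 56.7% of the members.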
